A study of Mus musculus with 4 samples.

Results

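The 8 genes described here, *Isl1*, *Tbx1*, *Six2*, *Eya1*, *Eya4*, *Foxc1*, *Foxc2* and *Meox1*, encode transcription factors and cofactors of the second heart field, the pharynx and the paraxial mesoderm. They were chosen by name and make up 8 of the 24637 genes in the deposited table, and all 8 were expressed above the minimum used for testing. Messenger RNA was sequenced in 4 libraries, made from 2 WT and 2 *Taf4a*-/- lines of mouse embryonic stem cells (ESCs). The cells had spent 5 days as embryoid bodies (EBs) in medium with 20% foetal calf serum and 9 further days on gelatin-coated plates. The paper used this protocol for differentiation into cardiomyocytes. The lines were derived from blastocysts of *Taf4a*+/- crosses on a C57Bl6J background, the null allele lacks exons 11 and 12, and all lines had been grown on mouse embryonic fibroblast feeders with LIF. The paper describes biological replicates of 2 independent lines per genotype, while the labels give only replicate numbers. Each library is taken here as a separate ESC line, so the spread between replicates is read as that of 2 lines per genotype.

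The second heart field is a pool of mesodermal progenitors behind and beside the heart tube that adds the outflow tract and right ventricle to it, and it lies next to the pharyngeal arches, with which it shares many factors. *Isl1*, a LIM-homeodomain factor, and *Tbx1*, a T-box factor whose human counterpart is lost in DiGeorge syndrome, mark these progenitors. *Six2*, a homeodomain factor, and *Eya1* and *Eya4*, its transactivating phosphatase partners, belong to a network that acts in pharyngeal and branchial organs, kidney and muscle. The forkhead factors *Foxc1* and *Foxc2* act together in somites, the outflow tract and vessels, and *Meox1* is a homeodomain factor of early somites. Taf4, the product of *Taf4a*, is a subunit of TFIID, the complex that recognises core promoters.

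Since Taf4 is a subunit of TFIID, the promoter letters are shown first for the members that differ most in behaviour. RefSeq promoter windows of GRCm38.p6 were matched by symbol for 5 of the 8 members, *Isl1*, *Tbx1*, *Six2*, *Eya4* and *Foxc1*, in 7 windows. No entry was matched for *Eya1*, *Foxc2* and *Meox1*. The 250 bases before the start are printed on the gene's strand for *Eya4*, the member with the largest fall, at chr10:23349891-23350140 on the minus strand (the downstream of 2 listed starts), for *Isl1*, the member with the highest level per length, at chr13:116309689-116309938 on the minus strand, and for *Foxc1*, at chr13:31806396-31806645 on the plus strand, whose level depended most on the WT line. Capitals mark matches, on either strand, to a CCAAT box (CCAAT) or a GC box (GGGCGG), so that a match on the opposite strand shows as the reverse complement.
Eya4: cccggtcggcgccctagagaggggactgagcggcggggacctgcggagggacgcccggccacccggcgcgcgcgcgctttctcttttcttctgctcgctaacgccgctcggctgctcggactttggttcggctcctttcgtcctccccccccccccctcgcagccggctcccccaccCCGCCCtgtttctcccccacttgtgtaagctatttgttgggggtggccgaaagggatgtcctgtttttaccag
Isl1: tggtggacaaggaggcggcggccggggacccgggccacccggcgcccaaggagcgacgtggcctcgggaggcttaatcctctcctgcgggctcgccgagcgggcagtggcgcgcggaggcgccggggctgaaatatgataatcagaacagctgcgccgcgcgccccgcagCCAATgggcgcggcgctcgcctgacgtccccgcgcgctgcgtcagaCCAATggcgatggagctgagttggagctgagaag
Foxc1: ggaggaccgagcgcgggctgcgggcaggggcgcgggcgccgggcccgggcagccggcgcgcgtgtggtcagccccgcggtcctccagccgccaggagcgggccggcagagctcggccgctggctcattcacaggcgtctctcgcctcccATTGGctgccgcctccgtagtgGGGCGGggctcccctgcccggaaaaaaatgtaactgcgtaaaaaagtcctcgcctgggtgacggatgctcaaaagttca
The *Eya4* window held 1 GC box, on the opposite strand, starting 73 bases before the start site. The *Isl1* window held 2 CCAAT boxes, 80 and 34 bases before it, and the *Foxc1* window a CCAAT box on the opposite strand at 101 and a GC box at 79. Over the 7 windows, a CCAAT box was found in 3, a GC box in 5 and a TATA box (TATAAA) in 0. The 2 *Eya4* windows overlap and share the same GC box, which is counted in both. Within a window no match overlapped another. Among all 32851 windows of the same length, 33.8% held CCAAT, 32.7% held GGGCGG and 12.4% held TATAAA. The member windows had a GC content of 54.4% to 74.0%, against a median of 52.4% over all windows. These matches describe letters in the windows and say nothing of binding.

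Between 21732746 and 27733034 reads were counted on genes in a library, and 1 read was worth 0.877 to 1.11 normalized counts, the deposited unit (read counts divided by a size factor of the library). The counts of *Taf4a* itself, 889 and 678 in WT and 1722 and 1799 in the other libraries, were higher in the lines labelled *Taf4a*-/- (log2 fold change 1.18, limma adjusted p = 0.00569). They cover the whole gene rather than the deleted exons and so do not check the labels, which are kept as given. The lines also differed in Y-linked RNA, with *Eif2s3y* at 1688 and 0 in WT replicates 1 and 2 and at 309 and 0 in the other lines. *Xist*, which coats the silenced X, was at 6.14 and 7.27 in WT and at 217 and 6470.0 in the lines labelled *Taf4a*-/-, so that replicate 1 of the latter held both. Among cell type markers, 6 of 6 cardiomyocyte genes fell, and their summed level was 19690.0 and 21757 normalized counts in WT against 1463 and 1691. All 6 pluripotency genes rose, with sums of 3726 and 1321 in WT replicates 1 and 2 against 12327 and 13465.

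Of the 8 factors, *Eya4* and *Foxc2* fell in the lines labelled *Taf4a*-/-, to 0.347-fold and 0.451-fold of WT on the fitted scale, and the other 6 did not pass the test. No member rose. The test was limma on log2(normalized count + 1), adjusted by the Benjamini-Hochberg method over 16926 genes whose mean reached 10, and a gene was called at an adjusted p under 0.05. Across all of these genes 17.3% were called lower and 11.3% higher, so 2 lower and 0 higher of 8 lay near the background. The median log2 fold change of the members was -0.51, against -0.01 over all genes tested. In 4 members, *Eya4*, *Foxc2*, *Tbx1* and *Meox1*, both lines labelled *Taf4a*-/- lay below both WT libraries, as in 36.6% of all genes tested, and in 0 members both lay above, against 34.5% of all genes. In these whole cultures, fewer cells of a type and less RNA per cell cannot be told apart.

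**Figure D1:**
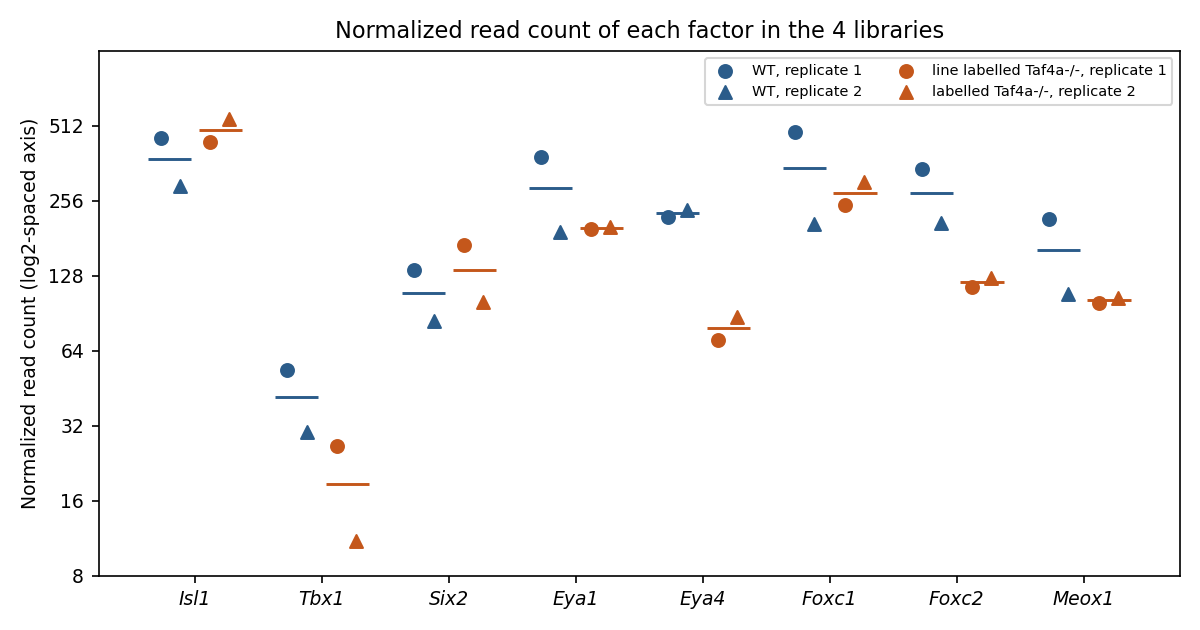
Normalized read counts of the 8 factors in each of the 4 libraries, on an axis with log2 spacing. Circles are replicate 1 and triangles replicate 2 of WT (blue) and of the lines labelled *Taf4a*-/- (orange), and horizontal lines are group means (n = 2). The orange points of *Eya4* and *Foxc2* lie below the blue points, while the WT points of *Foxc1*, *Eya1* and *Meox1* lie far apart.

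*Isl1* and *Tbx1*, the progenitor markers of the second heart field, were both detected after 9 days on plates. *Isl1* (chromosome 13, 117088478 to 117099896, minus strand, 6 exons; positions here and below are those of NCBIM37) was at 459 and 293 normalized counts in the WT lines, replicate 1 first, and at 439 and 543 in those labelled *Taf4a*-/-. The groups overlapped, since WT replicate 1 lay between the other lines. The log2 fold change of *Isl1* was 0.41 (standard error, SE, 0.25, 95% interval -0.20 to 1.03), which did not pass the test (limma adjusted p = 0.262). Its mean level, 376 ± 117 for WT against 491 ± 73.9 (SD, n = 2 each), was thus measured with an interval that reaches from 0.868-fold to 2.04-fold. In the same libraries *Tnnt2*, the cardiac troponin T gene, fell from a mean of 3006 to one of 477, a log2 fold change of -2.65.

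*Tbx1* (chromosome 16, 18581806 to 18588113, minus strand, 8 exons) was the member with the fewest reads. It was at 53.5 and 30.1 normalized counts in WT, and at 26.4 and 11.1 in the lines labelled *Taf4a*-/-, which correspond to 61, 29, 27 and 10 reads. Both lines labelled *Taf4a*-/- lay below both WT libraries, but the nearest 2 of these libraries had 29 and 27 reads. The log2 fold change of -1.18 (SE 0.55, interval -2.51 to 0.15) did not pass the test (limma adjusted p = 0.155). At this depth a fall of *Tbx1* to 0.175-fold and a level of 1.11-fold that of WT both lie within the interval.

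*Six2* and its Eya partners differed among themselves. *Six2* (chromosome 17, 86083608 to 86087594, minus strand, 2 exons), a factor known for maintaining progenitors of the kidney and for roles in the pharyngeal arches, had 135 and 84.2 normalized counts in WT and 169 and 101 in the lines labelled *Taf4a*-/-. These values overlapped, and in each genotype replicate 1 was the higher library. The log2 fold change of *Six2* was 0.29 (SE 0.37, interval -0.61 to 1.19, limma adjusted p = 0.582), and its sign changed when WT replicate 2 (-0.05) or the line labelled *Taf4a*-/- replicate 1 (-0.08) was left out.

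*Eya1* and *Eya4* encode proteins of the same family, and their mean WT levels per kilobase of exon were 65.6 and 54.4 normalized counts. *Eya1* (chromosome 1, 14159035 to 14300281, minus strand, 20 merged exons) had 382 and 191 normalized counts in WT against 198 and 200.2 in the lines labelled *Taf4a*-/-. WT replicate 2 was therefore just below both lines labelled *Taf4a*-/-, and replicate 1 stood above all of them. The log2 fold change of *Eya1* was -0.44 (SE 0.34, interval -1.26 to 0.38, limma adjusted p = 0.361), and without WT replicate 1 it was 0.06.

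*Eya4* (chromosome 10, 22823974 to 23069701, minus strand, 20 merged exons), whose human counterpart is linked to deafness and dilated cardiomyopathy, had 220.05 and 235.9 normalized counts in WT against 70.5 and 87.4 in the lines labelled *Taf4a*-/-. The groups were far apart, and the 2 WT lines were closer to each other than for any other member. *Eya4* fell from 228 ± 11.2 to 78.9 ± 11.9 (SD, n = 2 each), by a log2 fold change of -1.53 (SE 0.24, interval -2.11 to -0.94, limma adjusted p = 0.00856), and 8.80% of the genes tested had a lower value. Within the replicates numbered 1 the log2 difference was -1.63, and within those numbered 2 it was -1.42. The labels do not link lines of the same number across genotypes. Without WT replicate 2 the log2 fold change was -1.48 and *Eya4* was not called. It was called in the other 14 of 15 alternatives, of which the threshold of 0.1 could not lose the call. Its family member *Eya1* was not called, and the difference between these fold changes was not tested. *Mef2c*, a target of *Isl1* in the second heart field, had the pattern nearest to that of *Eya4*, with 1473 and 1462 in WT and 407 and 584 in the lines labelled *Taf4a*-/-.

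The forkhead genes *Foxc1* and *Foxc2* each have 1 exon and encode closely related proteins. *Foxc1* (chromosome 13, 31898515 to 31902504, plus strand) had 483 and 207 normalized counts in WT against 246 and 305 in the lines labelled *Taf4a*-/-. Both of the latter lay between the WT lines. The log2 fold change of *Foxc1* was -0.21 (SE 0.40, interval -1.17 to 0.76, limma adjusted p = 0.721), and it was 0.40 without WT replicate 1 and 0.05 with quantile normalization.

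*Foxc2* (chromosome 8, 123640071 to 123642792, plus strand) had 345 and 208 normalized counts in WT against 116 and 125 in the lines labelled *Taf4a*-/-. Both WT lines were above both other lines, although they differed by 1.66-fold. *Foxc2* fell from 276 ± 96.7 to 120.2 ± 6.69 (SD, n = 2 each), a log2 fold change of -1.15 (SE 0.29, interval -1.86 to -0.44, limma adjusted p = 0.0329). By replicate number, which does not link the lines, the log2 difference was -1.57 for replicates 1 and -0.73 for replicates 2. The call was near the threshold and was lost in 7 of 15 alternatives, of which the threshold of 0.1 could not lose it. Without WT replicate 1 the value was -0.79 (adjusted p 0.0762), without either library labelled *Taf4a*-/- the adjusted p was 0.0839 and 0.0624 for replicates 1 and 2, and with voom, quantile normalization and no variance trend it was 0.0531, 0.0811 and 0.0725; the stricter threshold of 0.01 was the last of the 7.

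*Meox1* (chromosome 11, 101738824 to 101755688, minus strand, 3 exons), the somite factor of the group, had 216 and 108 normalized counts in WT against 99.8 and 104 in the lines labelled *Taf4a*-/-. WT replicate 2 was just above the higher of these, whereas WT replicate 1 was 2.00-fold above WT replicate 2. The log2 fold change of *Meox1* was -0.58 (SE 0.36, interval -1.46 to 0.30, limma adjusted p = 0.270), and -0.08 without WT replicate 1.

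**Figure D2:**
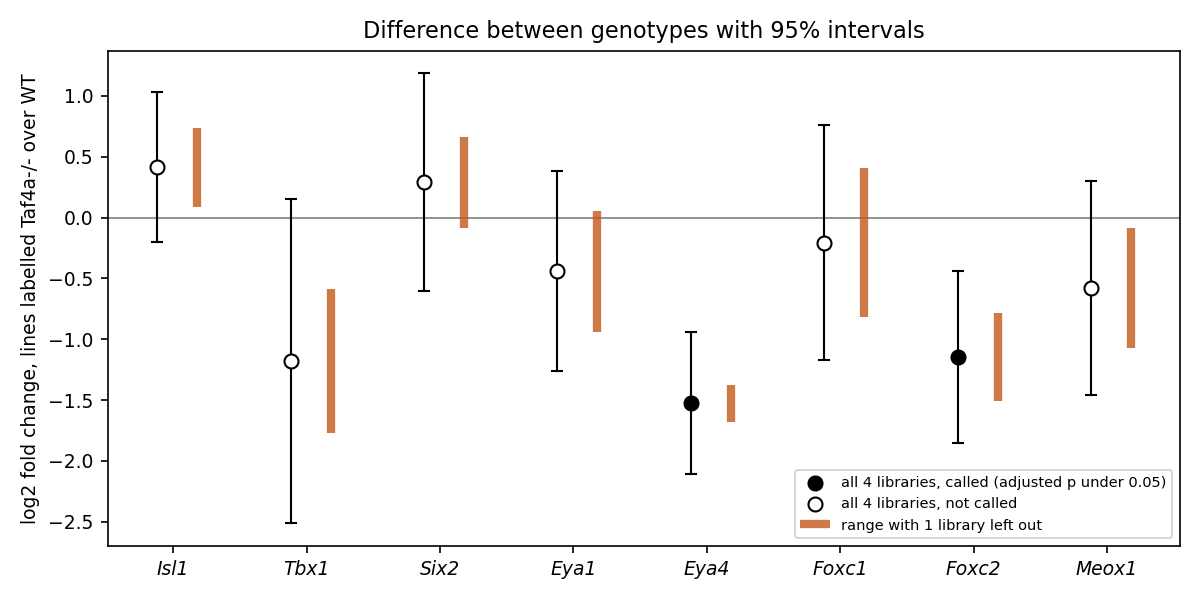
Log2 fold change of each factor in the lines labelled *Taf4a*-/- relative to WT, with 95% intervals from limma (black; filled circles were called at an adjusted p under 0.05) and the range of the value when 1 library was left out (orange bars). The bars of *Eya4* and *Foxc2* stay below 0, those of *Tbx1*, *Meox1* and *Isl1* stay on one side of it, and those of *Six2*, *Eya1* and *Foxc1* cross it.

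For most of these factors, the 2 WT lines were further apart than for most genes. WT replicate 1 was above WT replicate 2 in 7 of the 8 members, with *Eya4* the exception, whereas it was above in 48.2% of all genes tested. The median log2 difference between the WT lines was 0.77 over the members and -0.02 over all genes, and the median size of the difference over all genes was 0.26. For *Foxc1* the WT lines differed by 2.34-fold, and 4.31% of genes tested had a WT difference as large. The corresponding shares were 7.02% for *Eya1* and 7.09% for *Meox1*, and they were 10.7% to 16.0% for *Tbx1*, *Foxc2*, *Six2* and *Isl1* and 78.5% for *Eya4*.

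The lines labelled *Taf4a*-/- differed less, with a median size of 0.31 over the members and 0.16 over all genes. *Tbx1* and *Six2* were the members with the widest gaps there, with log2 differences of 1.19 and 0.74 between replicates 1 and 2. The median fold change of the members followed the choice of WT line: it was -0.01 when WT replicate 1 was left out and -1.01 when replicate 2 was. Compared within the same replicate number, 7 of 8 members were lower in the line labelled *Taf4a*-/- than in WT for replicate 1 (median -0.98), and 4 of 8 were lower for replicate 2 (median 0.01). *Eya4*, *Foxc2* and *Tbx1* had differences of -0.73 or lower in both. Their negative sign was fixed under any numbering, since both lines labelled *Taf4a*-/- lay below both WT libraries. *Six2* was above WT in both, by 0.32 and 0.26, but its groups overlapped. The labels do not link lines of the same number, so same-number differences depend on the numbering.

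The gap between the WT lines was shared with other progenitor genes. In the lists of related genes described below, WT replicate 1 was above WT replicate 2 in 49 of 54 genes tested, among them 15 of 15 paraxial mesoderm genes with a median log2 difference of 1.14. It was also above in 6 of 6 pluripotency genes (median 1.39), while the cardiomyocyte sum was 19690.0 in replicate 1 and 21757 in replicate 2. WT replicate 1 was also the WT line with Y-linked RNA. Whether these differences take part in the gaps of the members was not tested.

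**Figure D3:**
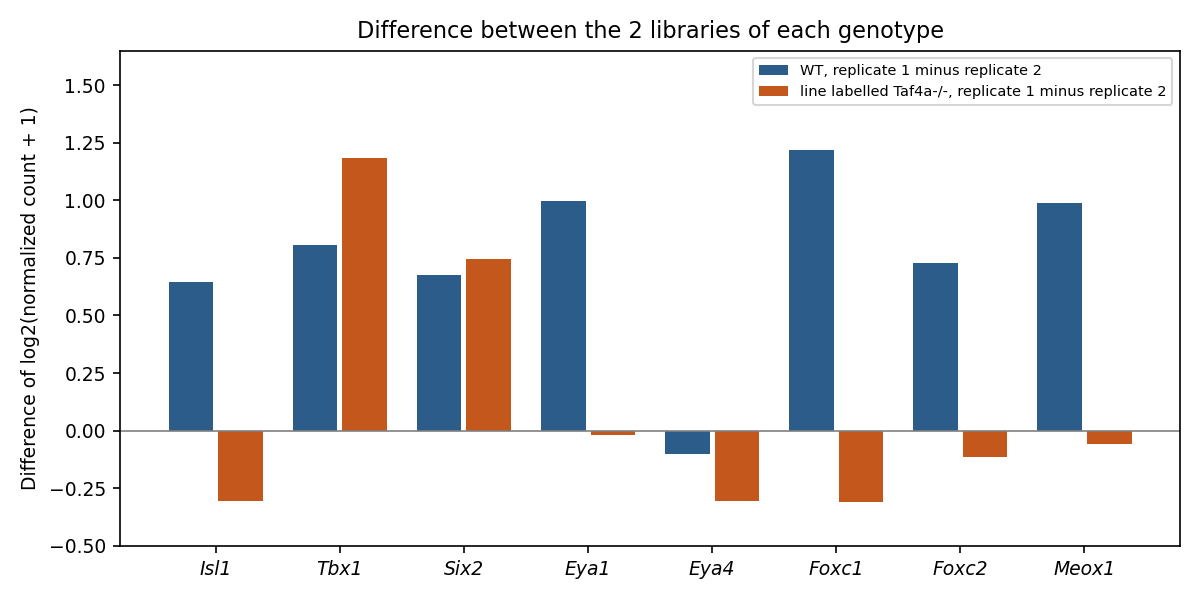
Difference between replicate 1 and replicate 2 in log2(normalized count + 1) for each factor, within WT (blue bars) and within the lines labelled *Taf4a*-/- (orange bars). The WT bars are positive for every factor but *Eya4* and reach 1.22 for *Foxc1*, and the orange bars are largest for *Tbx1* and *Six2*.

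Levels were compared between members per kilobase of merged exons. *Isl1* had the highest level in both genotypes, with 149 normalized counts per kilobase in WT and 194 in the lines labelled *Taf4a*-/-, and *Tbx1* had the lowest, with 23.1 and 10.4. In WT the order after *Isl1* was *Foxc2* (101), *Foxc1* (86.4), *Meox1* (72.7), *Eya1* (65.6), *Eya4* (54.4) and *Six2* (52.0). The 2 WT lines of each member overlapped those of its neighbour at every step of this order except the last, from *Six2* to *Tbx1*. In the lines labelled *Taf4a*-/- the order was *Isl1*, *Foxc1* (69.0), *Six2* (64.0), *Meox1* (45.7), *Eya1* (45.5), *Foxc2* (44.2), *Eya4* (18.8) and *Tbx1*. *Foxc2* was thus the second in WT and the sixth in these lines, and *Six2* the seventh and the third. There the lines of *Isl1* lay above those of *Foxc1*, those of *Six2* narrowly above those of *Meox1*, and those of *Foxc2*, *Eya4* and *Tbx1* apart in that order, while *Foxc1* and *Six2* overlapped, as did *Meox1*, *Eya1* and *Foxc2*.

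The patterns of the members over the 4 libraries were set beside those of the 54 tested genes of the related lists, by the distance between log2 values centred per gene. *Eya4* lay nearest to *Mef2c* (0.18), *Meox1* and *Eya1* to *Tcf21* (0.20 and 0.22), and *Isl1* to *Hand2* (0.25), a bHLH factor of the outflow tract and right ventricle. *Tcf21*, a bHLH factor of epicardial and head muscle progenitors, had 767 and 422 normalized counts in WT and 364 and 443 in the lines labelled *Taf4a*-/-, and it was also nearest to *Foxc1* (0.39). *Six2* lay nearest to the Notch ligand gene *Dll1* (0.35), *Tbx1* to the arch factor *Dlx2* (0.47) and *Foxc2* to *Dlx6* (0.58). *Dlx6* had only 4.89 to 19.3 normalized counts, so the match of *Foxc2* rests on few reads. With 4 libraries, these distances are descriptions of the samples.

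Genes related in role to the 8 factors were called about as often as all genes. Of 61 such genes in 4 lists, 54 were tested, of which 7 rose, 9 fell and 38 did not pass the test, with a median log2 fold change of 0.13, where 11.3% of all genes tested were called higher and 17.3% lower. Without WT replicate 1 the number that rose was 16, of which 6 were partners of the second heart field. Among 19 tested partners of the second heart field, *Aldh1a2*, which makes retinoic acid, rose from 522 and 410.4 normalized counts to 1510.5 and 1676 (log2 fold change 1.78, limma adjusted p = 0.00203). The cardiac homeobox gene *Nkx2-5* fell from 302 and 198 to 50.9 and 28.8 (-2.64, adjusted p = 0.00639), and *Mef2c* fell to 407 and 584 (-1.59, adjusted p = 0.00398). *Gata4* and the secreted factor *Wnt11*, named after their values were seen, also fell, with log2 fold changes of -0.63 and -1.18. The remaining 14 did not pass, and the median of the list was -0.16. Its FGF ligands, the signals made by the second heart field, were named likewise after their values were seen. *Fgf10* had 679 and 629 normalized counts in WT and 747 and 800 in the lines labelled *Taf4a*-/-, and *Fgf8* had 393 and 58.2 against 277 and 184, so that the WT lines differed by 6.75-fold. For *Fgf15* the values were 558 and 105 against 316 and 410.3.

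In the Six-Eya-Dach network, 9 other genes were tested. *Six4* rose from 532 and 345 normalized counts to 958 and 940.1 (log2 fold change 1.15, limma adjusted p = 0.0157). *Eya2* fell from 205 and 156 to 14.7 and 22.1 (-3.24, adjusted p = 0.00309). The other 7 did not pass the test, and the median was -0.09. Without WT replicate 1, 2 genes of this network rose, and without the line labelled *Taf4a*-/- replicate 2, 2 fell. Of the 4 Eya genes, *Eya2* and *Eya4* thus fell, while the other 2 did not pass.

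The pharyngeal arch and pouch genes had a median of -0.97 over 11 tested, with 4 lower and 1 higher (17.3% and 11.3% over all genes tested). *Pax1* and *Pax9*, paired-box genes of the pharyngeal pouches and sclerotome, fell from 66.6 and 53.0 to 5.87 and 3.32 normalized counts and from 87.7 and 90.4 to 5.87 and 13.3 (log2 fold changes -3.47 and -3.18, limma adjusted p = 0.00528 and 0.00683). The genes of the endothelin receptor *Ednra* and the ligand *Shh*, named after their values were seen, fell with -1.80 and -2.18. *Hoxa3*, the Hox gene of the third pharyngeal arch, rose from 54.4 and 20.8 to 177 and 170.3 (2.33, adjusted p = 0.0171). Its entry shares 33.0% of its exon length with another *Hoxa3* entry of the annotation and spans *Hoxa4*, *Hoxa5* and *Hoxa6*, so its counts are uncertain.

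The paraxial mesoderm and somite genes, the group nearest in role to *Meox1*, had a median of 0.98 over 15 tested, with 4 higher and 0 lower (11.3% and 17.3% over all genes tested). *Tcf15*, a bHLH factor of epithelial somites also known from pluripotent cells about to differentiate, rose from 41.2 and 24.9 to 314 and 248 normalized counts (log2 fold change 3.08, limma adjusted p = 0.00309). *Tbx18*, a T-box gene of anterior half-somites and epicardium, rose from 126 and 102 to 372 and 389 (1.74, adjusted p = 0.00398). *Lfng* and *Scx*, named after their values were seen, rose with 0.80 and 0.98. The count of 4 became 7 without WT replicate 1 and 2 without any 1 of the other libraries. The pluripotency genes rose in the same libraries, and their part in these differences was not tested.

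**Figure D4:**
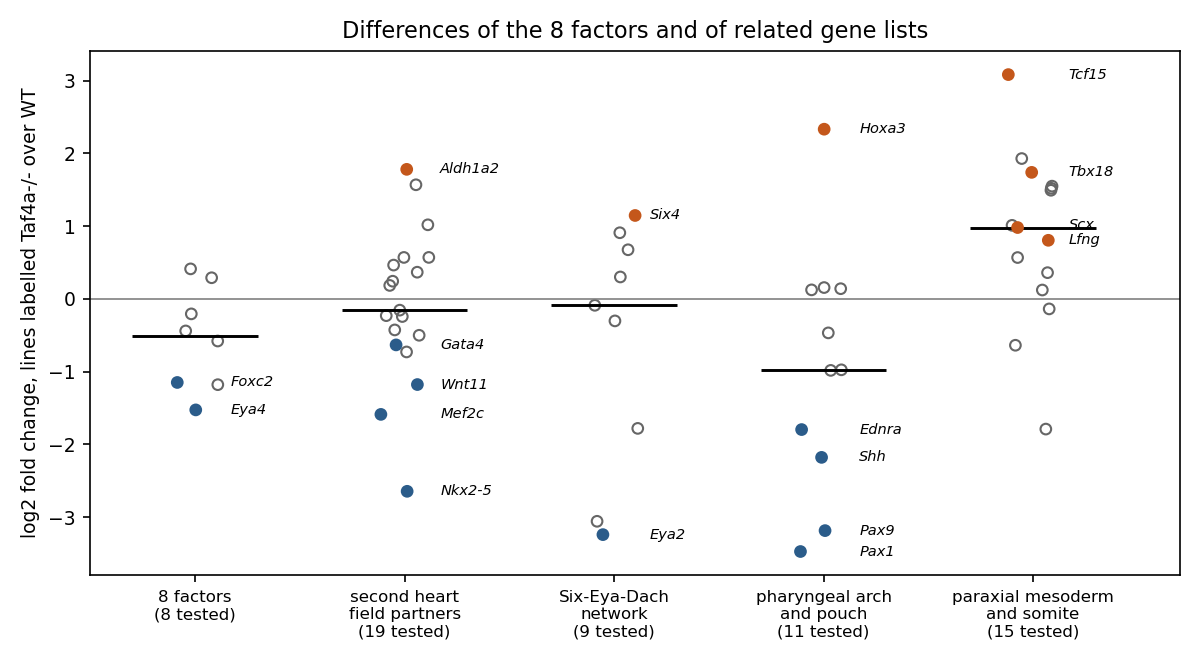
Log2 fold change in the lines labelled *Taf4a*-/- relative to WT for the 8 factors and for the genes of 4 related lists. Filled points were called (orange higher, blue lower) and are named, open grey points were not, and horizontal lines are medians. The arch and pouch list has a median of -0.97 and the somite list one of 0.98, with the members at -0.51.

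The members are also expressed in tissues other than the second heart field, so markers of those tissues were read beside them. *Isl1* also marks pancreatic endocrine cells. Of the endocrine markers, *Ins2* and *Gcg* were at 0 in both lines labelled *Taf4a*-/- and had at most 1.75 normalized counts in WT, and of the 2 endocrine markers tested 0 were called (sums of 53.5 and 20.8 in WT against 25.5 and 23.2). For the kidney, where *Six2* and *Eya1* are known, 8 of 9 markers were tested, *Hoxd11* rose, *Osr1* and *Cited1* fell, and the sums were 3997 and 3550.4 against 4133 and 4496. The skeletal myoblast sums were 29.8 and 22.9 against 13.7 and 19.9, with 0 of 5 markers above the minimum for testing and *Myod1* at 0 in both lines labelled *Taf4a*-/-.

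*Foxc1* and *Foxc2* are known in vessels, cartilage and mesenchyme. Of 5 endothelial markers 0 passed the test, and their sum was 10150 and 6900.3 in WT against 5307 and 8539. Among 6 cartilage markers *Acan* rose and *Col2a1* fell, with sums of 4292 and 2975 against 2551 and 1939. Of 9 fibroblast and mesenchyme markers 7 fell and *Prrx1* rose, and the sum was 430302 and 597678 in WT against 50222 and 62591. Like *Eya4* and *Foxc2*, this sum was lower in both lines labelled *Taf4a*-/-, as were the cardiomyocyte sum and 36.6% of all genes tested. Within WT the sum was higher in replicate 2, as was *Eya4*, whereas *Foxc2* was lower there. The part of this list in the fall of *Eya4* and *Foxc2* was not tested. In that list *Pdgfra*, a receptor gene of early mesoderm, had 7098 and 5451 against 5012 and 6043 and did not pass.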

How the data were processed

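Messenger RNA libraries (TruSeq v2, not strand-specific), taken here as those of 4 ESC lines, were made by the authors. Per the labels and the submitters' processing notes, bases were called with CASAVA 1.8, reads mapped to mm9/NCBI37 with TopHat 1.3.3 and counted per gene with HTSeq 0.5.3p1, and the deposited values are read counts divided by a DESeq size factor of each library. Every one of the 24637 gene identifiers had an entry in GENCODE's NCBIM37 annotation, under the same symbol for 99.4%.

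Dividing by the value of 1 read gave whole numbers for 100% of the values (within 0.05 reads), with 21732746 to 27733034 reads per library. The precision of single genes is limited by counting error and, more, by n = 2. The p-values rest on the spread between these lines, combined by limma with that of other genes of similar level. Genes with a mean of at least 10 were fitted with limma 3.58.1 in R 4.3.3 (lmFit, eBayes with trend, prior of 4.17 degrees of freedom) on log2(value + 1), two-sided, with Benjamini-Hochberg adjustment over 16926 genes. This scale shrinks the fold changes of genes with few reads. The script was tested on simulated reads with known changes, whose spread was smaller than that between the WT lines for most members.

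The members and lists were chosen with earlier results of these data known. Named genes are the members and *Taf4a*, up to 2 called genes in each direction per list, the nearest gene of each member and the markers. *Xist* and *Eif2s3y*, which tell the lines apart, and the genes so described in the text were named after their values were seen. Levels per length used merged exons. Promoters were RefSeq windows of GRCm38.p6. No exon of another gene overlapped the exons of a member, and 62 nt of *Taf4a* exons overlapped *4921531C22Rik* on the other strand. Exons of *Pax1*, *Ednra*, *Fgf10*, *Pax9*, *Shh*, *Wnt11*, *Fgf15*, *Dll1* and *Hoxa3* shared 59 to 2168 nt with an exon of another gene, so their counts are uncertain. Not found in the table were *Gcm2*, *Ripply2*, *Ins1*, *Iapp* and *Myf6*. The neuronal marker list is not reported here. Plots were made in matplotlib 3.10.9 (Python 3.11.15).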

Additional observations from a re-analysis of the deposited data

How the results depend on the processing

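The number of members called lower, 2, was 1 with quantile normalization, without a variance trend, at an adjusted p under 0.01 and with voom on the recovered reads, and 1 to 1 when a library was left out; the number called higher was 0 in all alternatives run. Without WT replicate 1 *Eya1* was at 0.057 (range 0.057 down to -0.94 over the left-out libraries) and *Foxc1* at 0.40 (-0.82 to 0.40), and *Foxc1* was at 0.050 with quantile normalization. *Six2* was at -0.048 without WT replicate 2 and -0.082 without *Taf4a*-/- replicate 1 (-0.082 to 0.66). The median of the members, -0.51, ranged from -1.01 to -0.013 when 1 library was left out. Over all genes, 1906 were called higher and 2928 lower. The counts were 856 and 1741 without a variance trend, 331 and 1119 at an adjusted p under 0.01, and 2903 higher at 0.1. Leaving out 1 library gave 624 to 2476 higher and 1222 to 3038 lower. Related genes called higher, 7, were 3 at 0.01, 11 at 0.1 and 5 to 16 with 1 library left out. Quantile normalization moved the share of calls that were higher from 39.4% to 52.2% and the median of all genes to 0.11. A block for the replicate number left 2 members called lower and 0 higher, and related genes called higher and lower at 7 and 9 (the somite list went from 4 to 2 higher, the second heart field list from 1 to 3). Over the 16926 genes tested, the log2 gaps between replicates 1 and 2 of each genotype did not go together (correlation 0.01). With 1 gap per genotype, this cannot tell whether libraries of the same number belong together. The main fit was planned without a block, and the numbers were not taken as pairs. *Tbx1* was not tested with a mean of at least 50. The edgeR and DESeq2 fits and TMM scaling were not run. In all, 304 of 359 values kept their direction and side of the threshold or moved little, 42 moved, 8 lost their call and 5 changed sign. The thresholds of 0.01 and 0.1 used the same fit, so fold changes and medians could not move there. A threshold of 0.1 could lose no call. The causes of the changes were not tested.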
